A study of Mus musculus with 10 samples.

Results

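The genes described are 9 of the Bcl2 family of survival and death regulators, chosen by name, with their probes found by the gene symbol of the platform annotation. Of these 9, 8 had a probe with their symbol alone, 1 probe each, among 20243 features tested. They were the anti-apoptotic genes Bcl2a1a, Bcl2a1d, Mcl1, Bcl2 and Bcl2l1 and the BH3-only genes Bcl2l11, Bid and Bad. Bax, which encodes a pore-forming death effector, had no named probe and was not analysed here. The RNA came from mouse FDB1 cells, a myeloid progenitor line grown in IL-3, that carried a mutant receptor. There were 4 RNA groups, namely FI-Delta Y577F cells (Y577F below) kept for 72 h without factor, Y577F cells at 0 h, FI-Delta cells kept for 72 h without factor, and FI-Delta cells at 0 h. All cells thus carry the FI-Delta receptor, an activated form of the beta chain that the receptors for GM-CSF, IL-3 and IL-5 have in common, and Y577F cells carry it with tyrosine replaced by phenylalanine at the named position. The cells were grown in IL-3, washed at 0 h and then left without it until 72 h. No cells kept in IL-3 for 72 h were included, so loss of the factor and the washing and time in culture cannot be told apart. Each mutant is represented by 1 line with 2 cultures, so the mutation and other differences between the lines cannot be told apart either.

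Proteins of the Bcl2 family decide whether the outer mitochondrial membrane is opened to release cytochrome c, the step that starts caspase activation. Anti-apoptotic members such as Bcl2, Bcl-xL (from Bcl2l1), Mcl1 and A1 (from Bcl2a1 genes such as Bcl2a1a) hold the pore-forming members Bax and Bak in check. BH3-only members such as Bim (from Bcl2l11), Bid and Bad bind the anti-apoptotic members or activate the pore formers. In myeloid cells IL-3 and GM-CSF are known survival factors, and Mcl1 and A1 are prominent survival proteins of neutrophils and macrophages. Much of this control acts on the proteins, which these RNA arrays do not measure.

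RNA was compared in pairs on 10 arrays of 2 colours, and every value is a log2 ratio between the RNA groups of 1 array. The lines were compared on 2 arrays at 72 h and on 3 at 0 h, and the times on 2 arrays in Y577F cells and on 3 in FI-Delta cells. Arrays 1 and 2 of the FI-Delta time arrays carried the same RNA numbers with exchanged dyes and were averaged, which left 9 hybridisations. Ratios have no absolute level, so the abundance of one gene cannot be set against that of another. For the same reason the myeloid identity of the cells could not be checked by marker levels. The direction of the deposited ratios was taken as Cy5 over Cy3, and the opposite reading would turn every sign below. After turning by the dyes, the arrays of a comparison correlated across features with r between 0.24 and 0.63, except 0 h array 1, which had r of 0.09 with 0 h array 2 and -0.04 with 0 h array 3. Its dyes were exchanged against those 2 arrays, which had 0.36 with each other. FI-Delta time arrays 1 and 2, the dye swap, had 0.24, and arrays 1 and 3, with the same dye order, had 0.54. The 72 h arrays (0.52) and the Y577F time arrays (0.63) also had exchanged dyes. The part of dye order in these correlations was not tested. These bulk RNA values cannot separate a changed number of cells of a kind from a changed amount of RNA per cell.

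At 72 h without factor, Bcl2a1a, Bcl2a1d, Mcl1 and Bcl2l11 rose in both lines and Bcl2 fell in both. In Y577F cells 6 of 8 members were called, where 18.0% of all features were (limma, adjusted p under 0.05). Of the members, 4 rose, where 9.28% of all features rose, and 2 fell, where 8.75% fell. In FI-Delta cells 5 of 8 were called, where 8.16% of all features were. Of these, 4 rose, where 5.19% of all features rose, and 1 fell, where 2.97% fell. The median log2 change of the 8 members was 0.58 in Y577F cells and 0.20 in FI-Delta cells, while over all features it was 0.01 in Y577F cells and -0.01 in FI-Delta cells. Between the lines, 6 members were higher in Y577F cells at 72 h and 1 was lower, where 12.9% of features were called, 6.44% higher and 6.45% lower. At 0 h no member was called by limma, where 1.42% of features were called, 0.934% higher and 0.484% lower, and 3 of 8 had an unadjusted p under 0.05, all with higher values in Y577F cells. Over all features 2453 of 20243 had such a p, counting both directions. The comparisons of lines and of times share RNA groups, and their values are given side by side as single measurements. Bcl2a1a and Bcl2a1d, and Bcl2a1c below, were counted as separate genes, though they are copies whose probes may detect the same RNA.

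**Figure D1:**
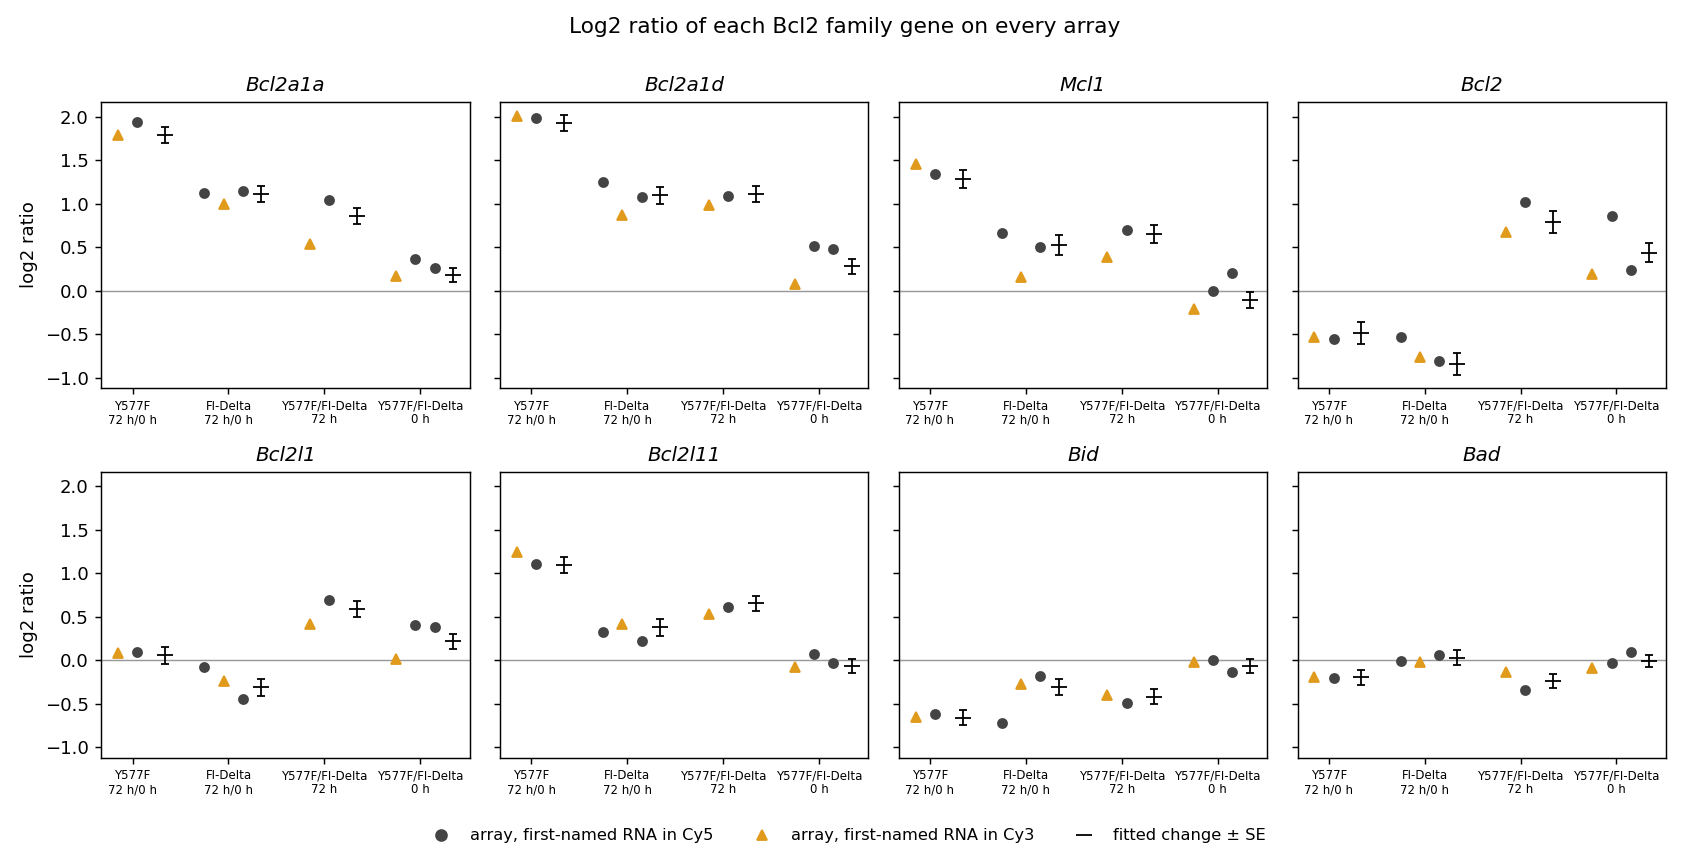
Log2 ratio (vertical axis) of each of the 8 genes on every array, for the 4 comparisons on the horizontal axis. Circles are arrays with the first-named RNA in Cy5, triangles arrays with it in Cy3, and the bar is the fitted change with its standard error. Bcl2a1a lies between 1.78 and 1.94 on the Y577F time arrays and between 0.99 and 1.14 on the FI-Delta time arrays, and Bad lies between -0.34 and 0.10 on all arrays.

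Bcl2a1a and Bcl2a1d encode A1, an anti-apoptotic protein whose gene has several near-identical copies in the mouse. Whether every copy yields a working protein was not tested. Their probes may detect more than 1 copy, which the windows below cannot show, because they lie before the annotated start. The upstream sequences of a pair of copies with probes of their own are shown here to make the likeness visible. Those of Mcl1 and Bcl2l11, which moved with these copies, follow. Each is the 250 bases before the annotated start of the gene in RefSeq (GRCm38.p6), 5′ to 3′ on the strand of the gene, with capitals for matches to the motifs named after the sequences.
Bcl2a1a, chr9:88956670-88956919, plus strand: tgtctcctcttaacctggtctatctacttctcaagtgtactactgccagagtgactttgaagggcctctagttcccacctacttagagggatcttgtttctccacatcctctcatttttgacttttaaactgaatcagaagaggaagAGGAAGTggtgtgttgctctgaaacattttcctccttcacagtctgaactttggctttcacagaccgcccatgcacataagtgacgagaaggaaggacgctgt
Bcl2a1d, chr9:88731851-88732100, minus strand: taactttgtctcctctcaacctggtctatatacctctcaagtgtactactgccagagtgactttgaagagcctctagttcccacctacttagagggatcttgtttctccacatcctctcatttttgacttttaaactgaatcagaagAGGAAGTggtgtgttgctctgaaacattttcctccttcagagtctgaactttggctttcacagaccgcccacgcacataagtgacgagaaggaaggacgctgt
Mcl1, chr3:95658471-95658720, plus strand: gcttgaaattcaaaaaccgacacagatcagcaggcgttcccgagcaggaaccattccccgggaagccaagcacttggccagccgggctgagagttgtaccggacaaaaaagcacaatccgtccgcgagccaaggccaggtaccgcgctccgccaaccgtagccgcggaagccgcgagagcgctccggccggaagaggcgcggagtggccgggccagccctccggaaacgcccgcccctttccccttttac
Bcl2l11, chr2:128125788-128126037, plus strand: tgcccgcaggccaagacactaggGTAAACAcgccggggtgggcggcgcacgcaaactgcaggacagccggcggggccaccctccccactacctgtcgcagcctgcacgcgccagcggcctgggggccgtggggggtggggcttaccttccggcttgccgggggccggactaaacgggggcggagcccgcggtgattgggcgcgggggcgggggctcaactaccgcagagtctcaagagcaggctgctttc

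The window of Bcl2a1a matched that of Bcl2a1d at 238 bases when aligned over the whole length, with 6 mismatches and 12 gap positions. The window of Bcl2a1b matched that of Bcl2a1a at 205 bases with 1 mismatch and 88 gap positions. The Bcl2a1b window lies further downstream in the shared stretch, so these gap positions stand at the ends of the alignment. Searched on both strands, the letters AGGAAGT, a site form of ETS factors such as PU.1, stood once in the windows of Bcl2a1a, Bcl2a1b, Bcl2a1c and Bcl2a1d and in 7.69% of 32851 annotated start windows of this length. The letters GTAAACA, a site form of FoxO factors, stood once in the Bcl2l11 window and in 3.17% of all windows. TTCNNNGAA, a site form of STAT factors, was found in no annotated start window of the 9 genes, Bcl2a1b or Bcl2a1c and in 7.02% of all windows. Each window searched here held at most 1 match, and the only other was AGGAAGT before a further start of Bad. A match describes letters and not binding.

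Bcl2a1a and Bcl2a1d had the largest increases of the 8 genes in both lines. The log2 ratio of Bcl2a1a at 72 h over 0 h was 1.78 and 1.94 on the Y577F arrays, against 1.12, 0.99 and 1.14 on the FI-Delta arrays. Every Y577F array lay above every FI-Delta array. The fitted change was 1.79 ± 0.09 in Y577F cells, a 3.46-fold rise (adjusted p = 2.6e-07), and 1.11 ± 0.09 in FI-Delta cells, a 2.16-fold rise (adjusted p = 3e-05, limma, ± standard error here and below).

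For Bcl2a1d the log2 ratio at 72 h over 0 h was 2.01 and 1.98 on the Y577F arrays, against 1.25, 0.87 and 1.07 on the FI-Delta arrays. The fitted rise was 1.92 ± 0.09, or 3.79-fold, in Y577F cells and 1.10 ± 0.10, or 2.14-fold, in FI-Delta cells. In an order of all features by p-value in Y577F cells, Bcl2a1d stood at place 22 and Bcl2a1a at place 27. A probe annotated to both Bcl2a1b and Bcl2a1a changed by 1.79 ± 0.09 in Y577F cells and 1.10 ± 0.10 in FI-Delta cells. The probe of Bcl2a1c, a further copy, changed by 1.67 ± 0.12 in Y577F cells and 0.98 ± 0.12 in FI-Delta cells. The 4 probes gave like values, and which copy each of them detected was not tested.

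Mcl1, which encodes a short-lived survival protein, rose in both lines. Its log2 ratio at 72 h over 0 h was 1.46 and 1.34 on the Y577F arrays, against 0.66, 0.16 and 0.50 on the FI-Delta arrays, so the lines did not overlap. The fitted change was 1.29 ± 0.11 in Y577F cells, a 2.44-fold rise (adjusted p = 7.2e-06 by limma), and 0.52 ± 0.11 in FI-Delta cells, a 1.44-fold rise (adjusted p = 0.012). The lowest FI-Delta value came from array 2, which held the same RNA numbers as array 1 with exchanged dyes. From the FI-Delta time arrays alone the change was 0.45 and was not called (adjusted p = 0.055 by limma).

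Bcl2, the founding anti-apoptotic member, moved the other way. Its log2 ratio at 72 h over 0 h was -0.54 and -0.55 on the Y577F arrays, against -0.53, -0.77 and -0.81 on the FI-Delta arrays, below 0 on all of them. The fitted change was -0.49 ± 0.12 in Y577F cells, a 1.40-fold drop (adjusted p = 0.017), and -0.84 ± 0.13 in FI-Delta cells, a 1.79-fold drop (adjusted p = 0.0016). The call in Y577F cells was lost without Y577F time array 1 (-0.53, adjusted p = 0.089 by limma) and without array 2 (-0.37, adjusted p = 0.16). Bcl2l1, which encodes Bcl-xL, was not called in either line. Its fitted change was 0.06 ± 0.10 in Y577F cells, with a 95% interval of -0.15 to 0.27, and -0.31 ± 0.10 in FI-Delta cells, with an interval of -0.53 to -0.09 (adjusted p = 0.092 by limma).

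**Figure D2:**
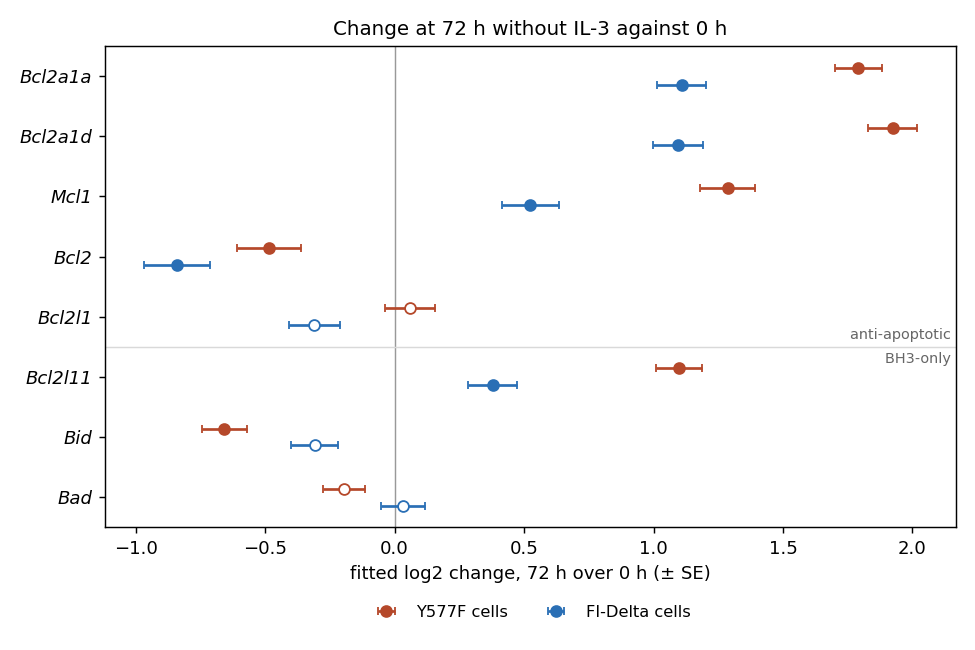
Fitted log2 change at 72 h over 0 h (horizontal axis, bars are standard errors) of the 8 genes in Y577F cells and FI-Delta cells. Filled points passed an adjusted p of 0.05 and open points did not. Bcl2a1a, Bcl2a1d, Mcl1 and Bcl2l11 lie right of 0 in both lines, and Bcl2 lies left of 0 in both.

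Among the BH3-only genes, Bcl2l11, which encodes the death activator Bim, rose together with the survival genes Mcl1 and Bcl2a1. Its log2 ratio at 72 h over 0 h was 1.25 and 1.11 on the Y577F arrays, against 0.33, 0.41 and 0.22 on the FI-Delta arrays. The Y577F values lay well above those of FI-Delta cells. The fitted change was 1.10 ± 0.09 in Y577F cells, a 2.14-fold rise (adjusted p = 7.1e-06), and 0.38 ± 0.09 in FI-Delta cells, a 1.30-fold rise (adjusted p = 0.028). The FI-Delta call was close to the threshold. From the FI-Delta time arrays alone it was lost at 0.29 (adjusted p = 0.19 by limma). It was also lost without 0 h array 1, without 72 h array 2, without Y577F time array 1, or without FI-Delta time arrays 1 and 2, with values between 0.32 and 0.38 and adjusted p between 0.066 and 0.15 by limma.

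Bid, whose product links death receptors to mitochondria once it is cut by caspase 8, fell in Y577F cells. Its log2 ratio at 72 h over 0 h was -0.65 and -0.61 on the Y577F arrays, against -0.72, -0.27 and -0.18 on the FI-Delta arrays, and the lines overlapped. The fitted change was -0.66 ± 0.09 in Y577F cells, a 1.58-fold drop (adjusted p = 0.00028), and -0.31 ± 0.09 in FI-Delta cells, which was not called (adjusted p = 0.063 by limma). Bid was called in FI-Delta cells with array weights (-0.42, adjusted p = 0.0013 by limma) and with the dye swap entered as 2 hybridisations (-0.34, adjusted p = 0.027). FI-Delta time array 1 gave the lowest value, and its dye swap, array 2, gave -0.27. Bad, whose product is held inactive by survival kinases, was not called in either line, at -0.20 ± 0.08 (interval -0.38 to -0.02) in Y577F cells and 0.03 ± 0.08 (interval -0.16 to 0.22) in FI-Delta cells.

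At 72 h the lines differed directly at most of these genes. Bcl2a1d was 2.16-fold higher in Y577F than in FI-Delta cells (1.11 ± 0.09, adjusted p = 1.2e-05), with log2 ratios of 0.98 and 1.09 on the 72 h arrays. Bcl2a1a was 1.81-fold higher (0.86 ± 0.09), with ratios of 0.54 and 1.04. The gap between the arrays was wider for Bcl2a1a than for Bcl2a1d. Bcl2 was 1.73-fold higher (0.79 ± 0.12, adjusted p = 0.0012 by limma), with ratios of 0.68 and 1.02.

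Bcl2l11 was 1.57-fold higher in Y577F cells at 72 h (0.66 ± 0.09), with ratios of 0.53 and 0.62 on the 72 h arrays. Mcl1 was also 1.57-fold higher (0.65 ± 0.11), with ratios of 0.39 and 0.69, and Bcl2l1 was 1.51-fold higher (0.59 ± 0.10), with ratios of 0.42 and 0.70. Survival and death genes were thus both among the higher ones, and all of these ratios were above 0. Bid was 1.33-fold lower in Y577F cells (-0.42 ± 0.09, adjusted p = 0.0082), with ratios of -0.40 and -0.49, a call lost without 72 h array 1 (adjusted p = 0.061 by limma) or array 2 (adjusted p = 0.11). Bad was not called, at -0.24 ± 0.08 (adjusted p = 0.088 by limma). From the 72 h arrays alone, Mcl1 at 0.54 and Bid at -0.44 were not called (adjusted p = 0.059 and 0.11 by limma).

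At 0 h the differences between the lines were smaller and none was called by limma. Bcl2 had log2 ratios of Y577F over FI-Delta cells of 0.20, 0.86 and 0.23 on the 3 arrays, 1 of which stood far above the others, and a fitted difference of 0.44 ± 0.11 (adjusted p = 0.097 by limma). Bcl2a1d had ratios of 0.08, 0.52 and 0.48 and a fitted difference of 0.28 ± 0.08 (adjusted p = 0.18 by limma). Bcl2l1 had ratios of 0.02, 0.41 and 0.39 and a fitted difference of 0.22 ± 0.09 (adjusted p = 0.32 by limma). For both of these genes the low value was that of 0 h array 1, the array with the exchanged dyes. The other members lay between -0.11 and 0.17, with Mcl1 at -0.11 ± 0.09 (interval -0.31 to 0.10), Bcl2l11 at -0.06 ± 0.08 (interval -0.24 to 0.11) and Bid at -0.07 ± 0.08 (interval -0.24 to 0.11).

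**Figure D3:**
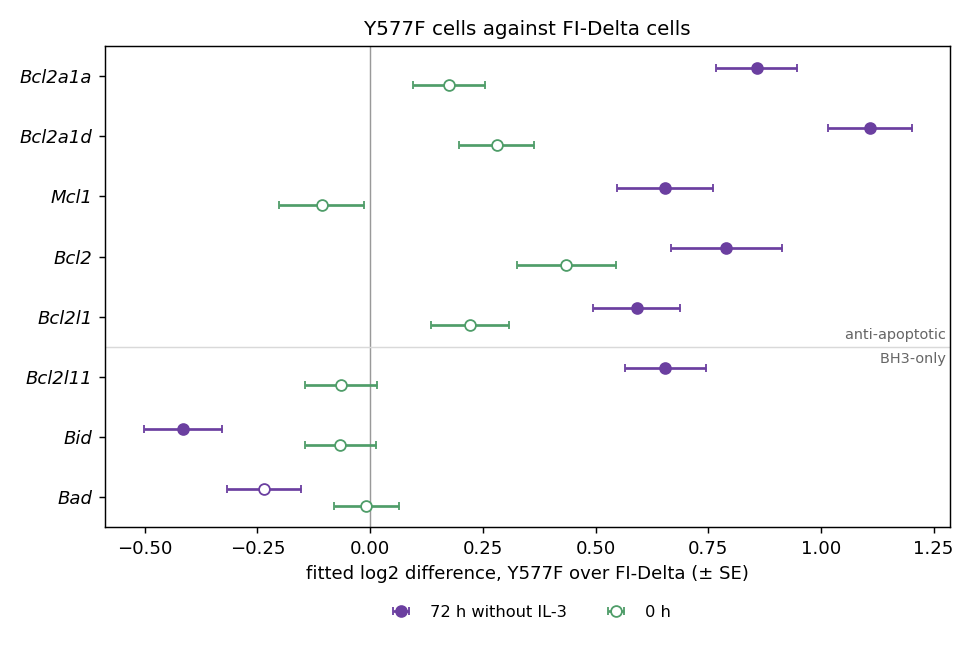
Fitted log2 difference of Y577F over FI-Delta cells (horizontal axis, bars are standard errors) at 72 h and at 0 h for the 8 genes. Filled points passed an adjusted p of 0.05 and open points did not. At 72 h 6 genes are filled right of 0 and Bid left of 0, and at 0 h every point is open.

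The change over 72 h itself differed between the lines for 4 of 8 members, all with the larger rise in Y577F cells, where 9.24% of all features had a difference called, 4.33% higher and 4.91% lower. The difference of the log2 changes was 0.83 ± 0.11 for Bcl2a1d, 0.68 ± 0.10 for Bcl2a1a, 0.76 ± 0.12 for Mcl1 and 0.72 ± 0.10 for Bcl2l11, with adjusted p between 0.0007 and 0.0025 (limma). From the time arrays alone the difference for Bcl2a1a was 0.76 and was not called (adjusted p = 0.071 by limma), while the other 3 were called. The remaining members were not called, at 0.35 ± 0.14 for Bcl2 (interval 0.05 to 0.66), 0.37 ± 0.11 for Bcl2l1 (interval 0.13 to 0.61), -0.35 ± 0.10 for Bid (interval -0.57 to -0.13) and -0.23 ± 0.09 for Bad (interval -0.43 to -0.02). Bid was called at -0.43 without FI-Delta time arrays 1 and 2 (adjusted p = 0.041 by limma).

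The likeness of the ratios of the 8 genes was measured as an uncentred correlation over the 9 hybridisations, which share RNA and are not independent. The calls came from the same values, so a high correlation between genes with like calls is not a separate result. Mcl1 and Bcl2l11 had 0.98, Bcl2a1a and Bcl2a1d 0.99, and Bcl2a1a and Mcl1 0.96. Bcl2a1a and Bcl2a1d are near-identical copies, and whether their probes measured separate RNAs was not tested. Bcl2 and Bcl2l1 had 0.81 with each other, and Bcl2 had -0.27 with Mcl1. Bid ran opposite to Bcl2a1d at -0.96. Bad had 0.76 with Bid and -0.79 with Bcl2l11. Among 15096 other features with a symbol, the nearest to Mcl1 were Btg2, a growth arrest gene, Cd93 and Ric1 (0.99 each). The nearest to Bcl2l11 were Tgfbr1, a receptor for TGF-beta, Naaa and Prkcd (0.99 each). For Bcl2a1a they were Ccnd2, which encodes cyclin D2, Tnfrsf1b, a TNF receptor, and Bcl2a1d (0.99 each), and for Bcl2a1d they were Cstb, Bcl2a1a and Mpeg1 (0.99 each). The nearest to Bcl2 were Akr1c13 (0.97), Thrsp (0.97) and Tusc3 (0.95), to Bcl2l1 Dtx3 (0.97), Tmem141 (0.97) and Btd (0.95), and to Bid 4933406D12Rik, Mir17hg and Slc16a1 (0.97 each).

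Of 16 further Bcl2 family genes measured, 2 were called in Y577F cells, where 18.0% of all features were, and 2 in FI-Delta cells, where 8.16% were. In Y577F cells 1 rose, Bcl2a1c, and 1 fell, Bcl2l14 at -0.32 ± 0.09, a call lost without 72 h array 1, FI-Delta time arrays 1 and 2, 0 h array 2 or Y577F time array 2. In FI-Delta cells Bcl2a1c rose and Bnip3, a mitochondrial gene known for its induction by low oxygen, fell at -0.97 ± 0.25, a call lost without 0 h array 1 or 2, 72 h array 2 or FI-Delta time arrays 1 and 2. Their median log2 change was -0.03 in Y577F cells and 0.03 in FI-Delta cells. The pore former gene Bak1 had 0.22 ± 0.11 in Y577F cells and -0.09 ± 0.12 in FI-Delta cells, and neither passed. The BH3-only gene Bbc3, which encodes Puma, had -0.31 ± 0.12 in Y577F cells and -0.16 ± 0.13 in FI-Delta cells and did not pass. Among further BH3-only genes in Y577F cells, Bmf had 0.50 ± 0.17, Bik 0.35 ± 0.13, Pmaip1 -0.06 ± 0.09 and Hrk -0.03 ± 0.08. None of these passed. Bak1 and the BH3-only genes named here were chosen for mention after their values were seen.

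Of 15 apoptosome and caspase genes measured, 2 rose and 2 fell in Y577F cells, where 9.28% of all features rose and 8.75% fell. In FI-Delta cells 3 rose and 1 fell, where 5.19% of all features rose and 2.97% fell. Casp1, an inflammatory caspase gene, rose by 1.10 ± 0.12 in Y577F cells, called under every alternative, and by 0.46 ± 0.12 in FI-Delta cells. Its FI-Delta call was lost without any single one of 7 of the 9 hybridisations. Cycs, the cytochrome c gene, fell by 0.50 ± 0.10 in Y577F cells, a call lost without Y577F time array 1. Across the leaving out of each hybridisation, the genes that rose numbered 1 to 2 in Y577F cells, and 0 to 3 in FI-Delta cells, with 0 when 0 h array 1, 72 h array 2 or FI-Delta time array 3 was left out. Those that fell in Y577F cells numbered 0 without Y577F time array 1.

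Of 9 caspase inhibitor genes measured, 5 rose and 1 fell in Y577F cells (9.28% and 8.75% of all features), and 1 rose in FI-Delta cells (5.19% of all features). Birc5, which encodes survivin and is known to peak in dividing cells, had a log2 change of -0.64 ± 0.10 in Y577F cells, a fall, and of 0.13 ± 0.10 in FI-Delta cells, which was not called. The difference between these changes was -0.77 ± 0.11 (adjusted p = 0.0015 by limma), a call lost from the time arrays alone. Birc6 had 0.52 ± 0.13 in Y577F cells and -0.33 ± 0.13 (not called) in FI-Delta cells, with its call in Y577F cells lost without Y577F time array 1. Naip2 rose by 0.46 in both lines (standard error 0.08 in Y577F and 0.09 in FI-Delta cells), and its FI-Delta call was lost without FI-Delta time arrays 1 and 2. Leaving out Y577F time array 1 reduced the 5 genes that rose in Y577F cells to 1.

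Among 11 death receptor genes measured, 4 rose and 2 fell in Y577F cells (9.28% and 8.75% of all features), and 4 rose in FI-Delta cells (5.19% of all features). The TNF receptor genes moved most, with Tnfrsf1b at 1.45 ± 0.08 in Y577F and 0.79 ± 0.08 in FI-Delta cells and Tnfrsf1a at 1.11 ± 0.11 in Y577F and 0.97 ± 0.11 in FI-Delta cells, called under every alternative. The difference between the lines in this change was 0.65 ± 0.09 for Tnfrsf1b (adjusted p = 0.00091 by limma, lost from the time arrays alone) and 0.14 ± 0.12 for Tnfrsf1a (adjusted p = 0.53). In Y577F cells 2 genes rose without Y577F time array 2 and none fell without Y577F time array 1. In FI-Delta cells 2 rose without FI-Delta time arrays 1 and 2 or without array 3.

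Of 20 genes of IL-3 receptor signalling measured, 6 rose and 2 fell in Y577F cells at 72 h (9.28% and 8.75% of all features), and 2 rose and 3 fell in FI-Delta cells (5.19% and 2.97% of all features). The GM-CSF receptor alpha chain gene Csf2ra rose by 1.59 ± 0.10 in Y577F and 0.98 ± 0.10 in FI-Delta cells. Csf2rb2, the IL-3 receptor beta chain gene of the mouse, had 0.23 ± 0.09 (not called) in Y577F cells and fell by 0.62 ± 0.09 in FI-Delta cells, and was 2.52-fold higher in Y577F cells at 72 h (1.33 ± 0.09). Stat5a, a transcription factor gene of the pathway, had 0.20 ± 0.09 (not called) in Y577F cells and fell by 0.51 ± 0.09 in FI-Delta cells, a call lost without FI-Delta time array 3. The 2 that fell in Y577F cells were Trib3 (-0.81 ± 0.09) and Jak2 (-0.58 ± 0.08), both called under every alternative. Jak2 also fell in FI-Delta cells (-0.31). That call was lost without 0 h array 1, 72 h array 1, Y577F time array 1, FI-Delta time arrays 1 and 2 or FI-Delta time array 3. At 0 h 4 of the 20 were higher in Y577F cells (0.934% of all features). None of the 20 was called by limma when 0 h array 1 or 0 h array 3 was left out. The 6 that rose in Y577F cells became 3 without Y577F time array 1 or without FI-Delta time arrays 1 and 2. In FI-Delta cells 1 fell without FI-Delta time array 3, and 1 rose without that array, without 0 h array 1 or without FI-Delta time arrays 1 and 2. Of 21 regulators that bind or modify Bcl2 family proteins, 2 rose and 1 fell in Y577F cells (9.28% and 8.75% of all features), and 2 rose and 2 fell in FI-Delta cells (5.19% and 2.97% of all features). In Y577F cells 1 rose without Y577F time array 1 or 2, and none fell without array 1. With single hybridisations left out, 1 to 3 rose in FI-Delta cells, and none fell without any single one of 7 of the 9, the exceptions being 72 h array 2 and 0 h array 3. Ywhab, a gene of a protein family that binds Bad, rose by 0.44 ± 0.08 in Y577F cells and by 0.31 ± 0.08 in FI-Delta cells, the second call lost without 7 of the 9 hybridisations in turn. Ppp3ca, a catalytic subunit gene of calcineurin, had 0.17 ± 0.09 (not called) in Y577F cells and rose by 0.65 ± 0.09 in FI-Delta cells.

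**Figure D4:**
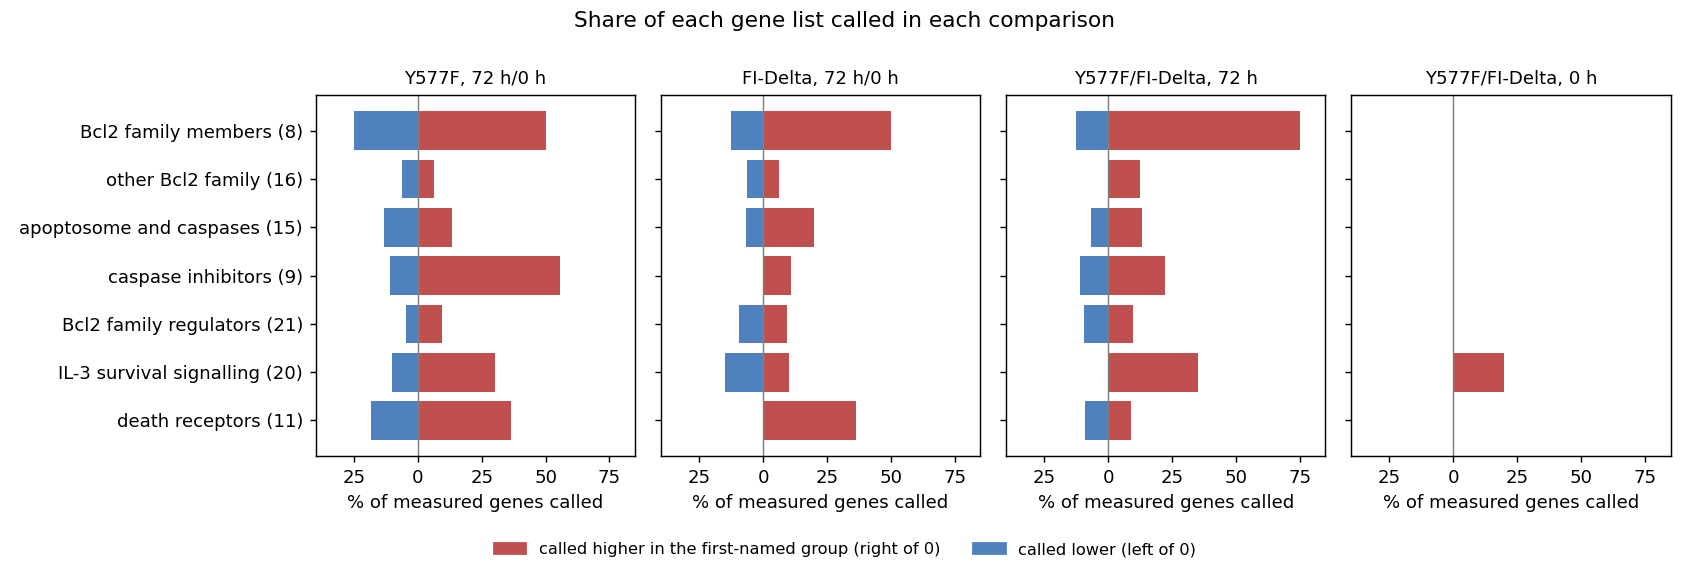
Share of the measured genes of each list (number measured in brackets) that was called, to the right of 0 for higher and to the left for lower values in the first-named group, in the 4 comparisons. The Bcl2 family members have 4 of 8 genes right of 0 in the change of each line and 6 of 8 in the comparison of the lines at 72 h.

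Markers of blood cell types moved in the same RNA, and their values are given here beside those of the Bcl2 family. Of all features, 9.28% rose and 8.75% fell in Y577F cells, and 5.19% rose and 2.97% fell in FI-Delta cells. Between the lines, 6.44% were higher in Y577F cells and 6.45% lower at 72 h, and 0.934% higher and 0.484% lower at 0 h. The change over time differed between the lines for 9.24% of features, 4.33% higher and 4.91% lower. Of 10 macrophage markers measured, 9 rose in Y577F cells and 7 in FI-Delta cells, with medians of 1.97 in Y577F cells and 0.78 in FI-Delta cells, and 8 differed between the lines in their change. At 72 h 9 of the 10 were higher in Y577F cells, and in FI-Delta cells 5 rose without FI-Delta time array 3. At 0 h 3 of the 10 were higher in Y577F cells, none of which was called without 0 h array 1. Of 12 neutrophil markers, 1 rose and 5 fell in Y577F cells (median -0.29) and 10 rose in FI-Delta cells (median 1.17), and all 12 were lower in Y577F cells at 72 h, as were 11 of 12 at 0 h. The change over time was called lower in Y577F cells for all 12. Of 10 mast cell and basophil markers 4 fell over time in each line and 1 rose in Y577F cells, a rise not called without Y577F time array 1. Between the lines 3 of these were higher in Y577F cells at 72 h and 1 lower, and 2 were higher at 0 h and 1 lower, none of which was called without 0 h array 1. Of 8 erythroid and megakaryocyte markers 2 fell over time in each line and 2 rose in Y577F cells, neither of which was called without Y577F time array 1 or 2. Between the lines 2 of these 8 were higher in Y577F cells at 72 h and 1 lower, and 1 was higher at 0 h. Without 72 h array 2 the higher ones at 72 h became 1, and the lower call was lost without 72 h array 1 or 2. Itga2b was the largest at 72 h (1.75 ± 0.10), called under every alternative. Of 8 lymphoid markers none was called over time in Y577F cells, by adjusted or unadjusted p, and 1 rose in FI-Delta cells, a call lost without any single one of 6 of the 9 hybridisations. Levels are not available from ratios, so no marker can be called absent. The part of cell type markers in the changes of the Bcl2 family was not tested.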

How the data were processed

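Total RNA was labelled with Cy5 or Cy3 and compared pairwise on 10 oligonucleotide arrays, per the labels. The deposited values are ratios of the channels, read as log2 values that the authors had normalised (limma is named in the submitters' processing notes). Their log base, direction and the kind of normalization or background correction were not stated in the sources used here. Base 2 and Cy5 over Cy3 were assumed because limma writes such ratios. Signal intensities were not used here, so precision is limited by how many arrays there are, and depth is unknown.

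Control spots (1243 of 23040) were dropped. The platform annotation named 1 gene for 16651 of the 21797 probes kept, more than 1 for 137 and no gene for 5009. Probes of a gene were averaged, which gave 20243 features. A linear model with a dye term was fitted over all features with limma 3.58.1 in R 4.3.3 on 9 hybridisations (5 residual and 6.34 prior degrees of freedom). Tests were two-sided, with Benjamini-Hochberg adjustment across the 20243 features, and calls needed an adjusted p under 0.05. The design names 2 biological replicates per line, but several arrays share RNA and were treated as independent, so p-values may be too small. The method was tested on simulated data. Noise there was independent between hybridisations, so that test could not show what shared RNA does to the p-values.

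The members, the gene lists, the motifs and the tests were chosen with earlier results of these data known. All members are reported. From each list, called genes with the largest changes were named (up to 4, or the 2 largest where none was called), not all of which are printed. The 3 nearest patterns of each called member were named by uncentred correlation. The lists were further Bcl2 family genes, apoptosome and caspase genes, caspase inhibitors, Bcl2 family regulators, IL-3 survival signalling, death receptors, and markers of 5 cell types. Alternatives were no dye term, direct arrays only, scaling, centring, array weights, the dye swap unaveraged, probes unaveraged, a culture block, robust moderation and leaving out each hybridisation. Sequences were read from RefSeq tables and aligned with Biopython 1.88 in Python 3.11.15. All 8 members were found in RefSeq by gene identifier.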

Additional observations from a re-analysis of the deposited data

Results flagged for a closer look

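The change over 72 h differed between the lines by the test of that difference for 4 genes. It was larger in Y577F cells by 0.83 for Bcl2a1d (log2 change 1.92 in Y577F and 1.10 in FI-Delta cells), by 0.68 for Bcl2a1a (1.79 in Y577F and 1.11 in FI-Delta cells), by 0.76 for Mcl1 (1.29 in Y577F and 0.52 in FI-Delta cells) and by 0.72 for Bcl2l11 (1.10 in Y577F and 0.38 in FI-Delta cells). These are fitted values over 9 hybridisations. No comparison had more than 3 arrays, so single arrays were not tested for lying apart.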

How the results depend on the processing

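Over 18 alternatives for each of 8 genes in 5 comparisons, 693 of the values kept their sign and their side of the threshold, 17 lost and 4 gained a call, and 6 changed sign, none of them called. With probes unaveraged the log2 values of these genes could not change, because each has 1 probe. With array weights the sign changed for Bad at 72 h in FI-Delta cells (-0.0020) and for Bad between the lines at 0 h (0.0052). Without single hybridisations Bad ranged from -0.0115 to 0.0612 in FI-Delta cells and from -0.0468 to 0.0505 at 0 h, and Bcl2l1 from -0.0277 to 0.110 in Y577F cells. The number of members called in FI-Delta cells was 3 from the direct arrays alone, against 5. At 0 h it was 1, Bcl2, with array weights, against 0. Without single hybridisations the numbers lay between 5 and 6 in Y577F cells, 4 and 5 in FI-Delta cells, 6 and 7 between the lines at 72 h, 0 and 0 at 0 h, and 4 and 5 for the difference between changes.

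A replicate block for culture without a dye term gave 4 members called at 72 h between the lines, against 7, with Mcl1 (0.61), Bcl2l1 (0.55) and Bid (-0.42) not called, and it ended the call of Bcl2l11 in FI-Delta cells (0.36). Line arrays of 0 h and 72 h with the same culture numbers had deviations that correlated at -0.36 and -0.27. There are 2 arrays at 72 h, whose deviations mirror each other, and the arrays with the same numbers have exchanged dyes, so whether the numbers pair the arrays cannot be told from these values. Called features in all numbered 1018 at 72 h between the lines from the direct arrays alone and 979 with the block, against 2609, and at 0 h 46 and 21, against 287. With array weights they numbered 5537 at 72 h. In FI-Delta cells they numbered 912 from the direct arrays, 3786 with weights and 1087 with the block, against 1652. In Y577F cells they numbered 2224 from the direct arrays, against 3649, and for the difference between changes 210 from the direct arrays and 961 with the block, against 1871. At 0 h weights gave 445 and leaving out 0 h array 1 gave 57. The cause was not tested. A filter on dim probes was not run because intensities were not used here.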

Other observations

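The 4 comparisons form a closed loop, so the difference between the time changes can be read along 2 routes that share no array. Both routes use the same RNA groups with the same culture numbers, so they are not independent. For Bcl2a1d the time arrays gave 0.93 and the line arrays 0.68, and for Bcl2a1a they gave 0.76 and 0.52. For Mcl1 the time arrays gave 0.95 and the line arrays 0.54, and for Bcl2l11 they gave 0.89 and 0.58. Both routes had the same sign for all 8 genes. The gap between the routes was 0.41 for Mcl1 and 0.30 for Bcl2l11, against a median of 0.15 over all features, and 0.01 for Bad. No member had a called dye term, with values between -0.0038 and 0.12.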
